A study of Homo sapiens with 4 samples.

Results

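The array labelled MDA-MB-231 was set against the array labelled MCF10A with Dicer antibody exosomes, 1 array each, by every probe with a detection p below 0.01 on either. The detection p ranks a probe's signal among the negative control probes of its own array. Of 47322 probes, 19634 qualified, and 2200 of them were detected on both arrays, 373 only on the MDA-MB-231 array and 17061 only on the Dicer antibody array. In genes, each represented by 1 probe with a single symbol, 11259 of 20043 qualified: 1411 (7.04% of all) were detected on both arrays, 175 only on the MDA-MB-231 array and 9673 only on the Dicer antibody array.

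MDA-MB-231 is a human breast cancer line, and these cells were labelled as not treated. MCF10A is a non-tumorigenic human breast epithelial line, and the cells of the second array were given vesicles from MDA-MB-231 cells that had been loaded with an antibody to Dicer. Both lines were grown with serum freed of exosomes, and no passage, dose, time of exposure or control antibody was named in the labels. The extraction notes describe both cellular and exosomal RNA, while each sample label names cells, so which of these kinds of RNA was hybridised on the MDA-MB-231 array cannot be told apart here. The remaining 2 arrays of the study, untreated MCF10A cells and MCF10A cells given exosomes without antibody, are used only as points of reference.

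Dicer is the ribonuclease that cuts hairpin precursors of microRNAs, exported from the nucleus after a first cut by Drosha and DGCR8, into short duplexes. One strand is then loaded by partner proteins into an Argonaute protein, and the complex represses messenger RNAs that pair with it. Exosomes are small vesicles released when multivesicular bodies fuse with the cell membrane, and they carry proteins, messenger RNAs and small RNAs between cells. The assay copied total RNA into biotin-labelled RNA and did not measure mature microRNAs.

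The arrays fell into pairs by detection before any comparison was made. The MDA-MB-231 array detected 2573 probes, the exosome array 2526, the Dicer antibody array 19261 and the untreated array 19150. The highest signals were alike, at 19398.3 units on the MDA-MB-231 array and 21381.9 units on the Dicer antibody array. The median signal over all probes was 51.8 units on the MDA-MB-231 array and 62.5 units on the Dicer antibody array. Among detected probes, 189 exceeded 1000 units on the MDA-MB-231 array, against 3588 on the Dicer antibody array, and 59.5% of them on the MDA-MB-231 array, against 20.98% on the Dicer antibody array, lay at or under 100 units. The 100 brightest probes held 61.84% of all signal above the array median on the array labelled MDA-MB-231 and 11% on the Dicer antibody array. In bulk RNA of this kind, fewer cells and less RNA per cell cannot be told apart. The part of RNA amount or quality in this contrast was not tested.

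Defining markers were read first as a check of the labels. Vimentin (VIM), an intermediate filament protein of mesenchymal cells and of MDA-MB-231, gave 109.6 units on the MDA-MB-231 array and 13261.9 units on the Dicer antibody array. CAV1, the coat protein of caveolae, gave 75 units on the MDA-MB-231 array and 529.4 units on the Dicer antibody array. Of 9 MDA-MB-231 markers, these 2 were detected on the array labelled MDA-MB-231 and all 9 on the Dicer antibody array, beside 7.91% and 55.3% of all genes. Their summed signal was 559.3 units on the MDA-MB-231 array against 30562.2 units on the Dicer antibody array. The other markers, among them AXL (66.6 units on MDA-MB-231 and 1200 units on Dicer antibody), CD44 (46.8 units on MDA-MB-231 and 5554.9 units on Dicer antibody) and PLAU (57.9 units on MDA-MB-231 and 6334 units on Dicer antibody), were not detected on the array labelled MDA-MB-231. These are a receptor kinase, a hyaluronan receptor and the urokinase plasminogen activator. A wider list of MDA-MB-231 and related breast cancer genes had 5 of 33 (15.2%) detected on the array labelled MDA-MB-231. On the Dicer antibody array 32 (97%) were detected. The highest signals of that list were 6941.7 units on MDA-MB-231 and 20768.2 units on Dicer antibody.

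Most basal epithelial markers of MCF10A were likewise not detected on the arrays. Of 13 basal epithelial markers, 9 had a probe. None was detected on the array labelled MDA-MB-231 (44.8 to 61.3 units, sum 469.1), 4 were detected on the Dicer antibody array (43.5 to 3185.9 units, sum 4254.9) and 1 on the untreated array. The basal keratin KRT5 gave 44.8 units on the MDA-MB-231 array and 43.5 units on the Dicer antibody array, and KRT14, CDH1, ITGB4 and CDH3 were likewise detected on neither. LAMB3, a laminin-332 chain, gave 54.3 units on the MDA-MB-231 array against 3185.9 units on the Dicer antibody array by 1 probe. Further LAMB3 probes gave 51.7 and 44.5 units on MDA-MB-231, against 67.7 and 74.9 units on Dicer antibody. SERPINB5, known as maspin, gave 59.2 units on MDA-MB-231 and 393 units on Dicer antibody. Over all genes, 7.91% were detected on the array labelled MDA-MB-231 and 55.3% on the Dicer antibody array. The fibroblast list had 0 of 18 genes detected on the first and 12 of 18 (66.7%) on the second (42.4 to 4717.6 units). All 18 were detected on the untreated array, which detected 11110 of all 20043 genes. Neither label was thus borne out by most of its markers. The array labelled MDA-MB-231 detected few genes of any kind, so markers missing there cannot decide its label. All 9 MDA-MB-231 markers were detected on the untreated array too, so their presence on the Dicer antibody array cannot decide that label either. Whether the labels are right was not tested, and the arrays are called by their labels with that limit.

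The share of genes detected on the MDA-MB-231 array varied little with the Dicer antibody signal up to 3000 units. Of the genes detected on the Dicer antibody array at up to 100 units, 12.9% (225 of 1750) were also detected on the MDA-MB-231 array. For a Dicer antibody signal over 100 and up to 300 units the share was 10.6%, up to 1000 units it was 11.3%, up to 3000 units 14.5% and up to 10000 units 21.5%. Over 10000 units it was 53.8% (57 of 106). So 49 of the 106 genes brightest on the Dicer antibody array were not detected on the array labelled MDA-MB-231, and 29 of the 106 exceeded 1000 units there. Of the 106, 38 encode ribosomal proteins.

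**Figure D1:**
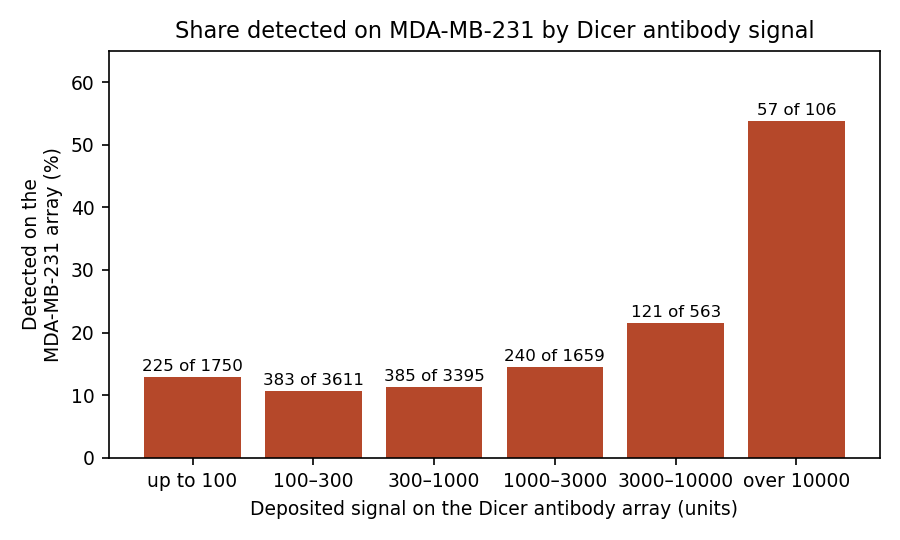
Share of genes detected on the MDA-MB-231 array (vertical axis, percent) among genes detected on the Dicer antibody array, grouped by their deposited signal on the Dicer antibody array (horizontal axis, units). Numbers over the bars give genes detected on MDA-MB-231 of all genes in the bin. The bars stay between 10.6% and 21.5% up to 10000 units and reach 53.8% above it.

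Over the 1411 genes detected on both arrays, the median deposited signal was 94.4 units on the MDA-MB-231 array and 405.6 units on the Dicer antibody array. The MDA-MB-231 signal was the brighter in 123 of them (8.72%). Over the 175 genes detected only on the MDA-MB-231 array the medians were 70.9 units on MDA-MB-231 and 66.1 units on Dicer antibody, and 12 of the 175 exceeded 100 units on the MDA-MB-231 array. Over the 9673 genes detected only on the Dicer antibody array the medians were 52.2 units on MDA-MB-231 and 310 units on Dicer antibody, and 1910 exceeded 1000 units on the Dicer antibody array. The genes detected only on the MDA-MB-231 array therefore lay close to the detection limit. Of 28061 probes not detected on the Dicer antibody array, 373 (1.33%) were detected on the array labelled MDA-MB-231. If all 47322 probes lay at background, 473.22 would nominally pass a detection p below 0.01. How many of the 373 lay at background was not tested. At the threshold itself, the last probes inside had a detection p of 0.00909 and a signal of 67.9 units on the MDA-MB-231 array, and the first outside had a detection p of 0.01039 and a signal of 67.8 units there.

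**Figure D2:**
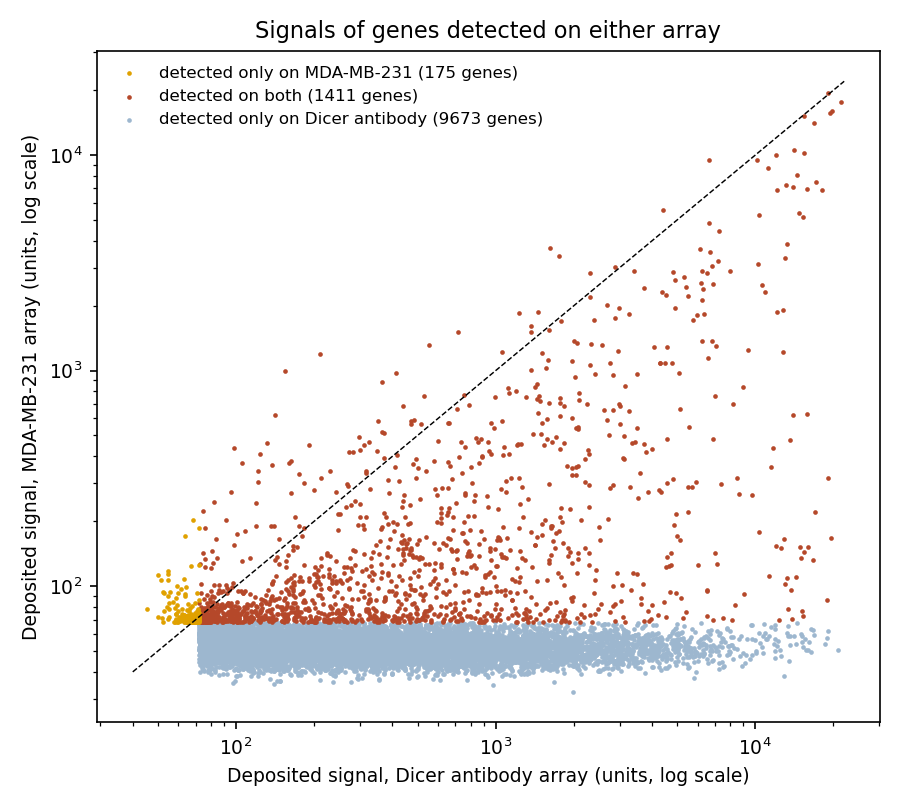
Deposited signals of the 11259 genes on the MDA-MB-231 array (vertical axis, log scale) and the Dicer antibody array (horizontal axis, log scale), 1 point per gene, coloured by the arrays that detected it. The dashed line marks equal signals. Most of the 1411 genes detected on both arrays lie below it, and the 9673 genes detected only on the Dicer antibody array form a band at the background of the MDA-MB-231 array.

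How far one array stood above the other depended on how they were scaled. Quantile normalization gives all arrays the same distribution, so by its construction it lifts the faint probes of an array with few bright ones. The median log2 difference over the 1411 genes, MDA-MB-231 minus Dicer antibody, was 3.29 after background correction and quantile normalization and -1.39 on the deposited signals. After quantile normalization 1395 of 11259 genes (12.4%) stood 2-fold or more above their Dicer antibody value on the MDA-MB-231 array and 570 (5.06%) as far below it, against 27 higher and 8045 lower on the deposited signals. Of the 1411 genes, 120 were higher under all 6 scalings tried, 87 were lower under all 6 and 1204 changed sign. Each fold below is therefore the smallest of the 6 scalings, given only where all 6 had the same sign. By that measure 27 genes (0.24%) reached 2-fold higher and 425 (3.77%) reached 2-fold lower. All 425 gave at least 3447.9 units on the Dicer antibody array. A count of lower genes in a list therefore depends on how bright its members were there. For a gene detected on 1 array only, the difference was taken against the lowest detected value of the other array, or the gene's own value there if that was higher, and is a lower bound. With single arrays, no difference carries a replicate error or a test.

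The brightest signals of the MDA-MB-231 array belonged to housekeeping transcripts that were as bright on the other array. RPS12, a protein of the small ribosomal subunit, gave 19398.3 units on the MDA-MB-231 array and 19043.9 units on the Dicer antibody array. EEF1A1, the elongation factor that brings aminoacyl-tRNA to the ribosome, gave 17585.7 units on MDA-MB-231 and 21381.9 units on Dicer antibody. FTL, the ferritin light chain, gave 15661.7 units on MDA-MB-231 and 19375.2 units on Dicer antibody, and UBB, a polyubiquitin gene, gave 10502.2 units on MDA-MB-231 and 14080.1 units on Dicer antibody. S100A6, a small calcium-binding protein, gave 9529.2 units on the MDA-MB-231 array against 6658.4 units on the Dicer antibody array. Of the 10 highest MDA-MB-231 signals, 5 were of ribosomal protein genes (RPS12, RPL12, RPS27, RPL27A and RPL11), and a further one, RPL13AP5 (15943.8 units on MDA-MB-231 and 19762.8 units on Dicer antibody), is a pseudogene whose probe may read its parent RPL13A. Signals of different probes are not compared as levels, since probes bind with different strength.

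In all, 100 genes exceeded 1000 units on the MDA-MB-231 array, and 97 of these also did so on the Dicer antibody array. All 100 were detected on the exosome array, beside 81% of the 1411 genes detected on both compared arrays. Only 4 genes were shared by the 10 highest signals of each array.

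The ribosomal protein genes divided into a bright and an undetected group on the MDA-MB-231 array. Of 67 measured, 24 (35.8%) were detected on the array labelled MDA-MB-231 and 66 (98.5%) on the Dicer antibody array, against 7.91% and 55.3% of all genes. Of the 24, 15 exceeded 1000 units on the MDA-MB-231 array and 9 lay over 100 and up to 1000 units there. The other 43 had a median of 56.6 units on the MDA-MB-231 array and of 7772.3 units on the Dicer antibody array. Of the list, 37 were at least 2-fold lower under all 6 scalings and none at least 2-fold higher, beside 3.77% and 0.24% of all genes compared.

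RPL12, RPS27 and RPL27A were bright on both arrays. RPL12 gave 15102.8 units on the MDA-MB-231 array and 15372.4 units on the Dicer antibody array, RPS27 gave 14072.2 units on MDA-MB-231 and 16771.1 units on Dicer antibody, and RPL27A gave 10204.6 units on MDA-MB-231 and 15421.3 units on Dicer antibody. Other proteins of the same subunits were not detected on the array labelled MDA-MB-231 at all. RPL41 gave 62.1 units on MDA-MB-231 and 19043.2 units on Dicer antibody and was at least 20.7-fold lower. RPS25 gave 59.2 units on MDA-MB-231 and 16851.9 units on Dicer antibody and was at least 16.6-fold lower. RPS16, RPL19 and RPS19 gave 63.2, 49.6 and 55.2 units on the MDA-MB-231 array, against 16375.7, 16325.5 and 16148.3 units on the Dicer antibody array, with bounds of at least 15-fold, 14.7-fold and 14.2-fold lower. RPLP2, an acidic protein of the ribosomal stalk, was detected on both arrays and at least 5.3-fold lower (132.9 units on MDA-MB-231 and 16685.3 units on Dicer antibody). All 24 ribosomal protein genes detected on the MDA-MB-231 array were also detected on the exosome array, which detected 26 and divided the list in a similar way. Among all 1411 genes detected on both compared arrays, the share also detected on the exosome array was 81%. On the exosome array RPL12 gave 17384.2 units and RPS27 19477.1 units, while RPL41 gave 52.2 units, RPS25 45.7 units and RPL19 45.2 units.

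**Figure D3:**
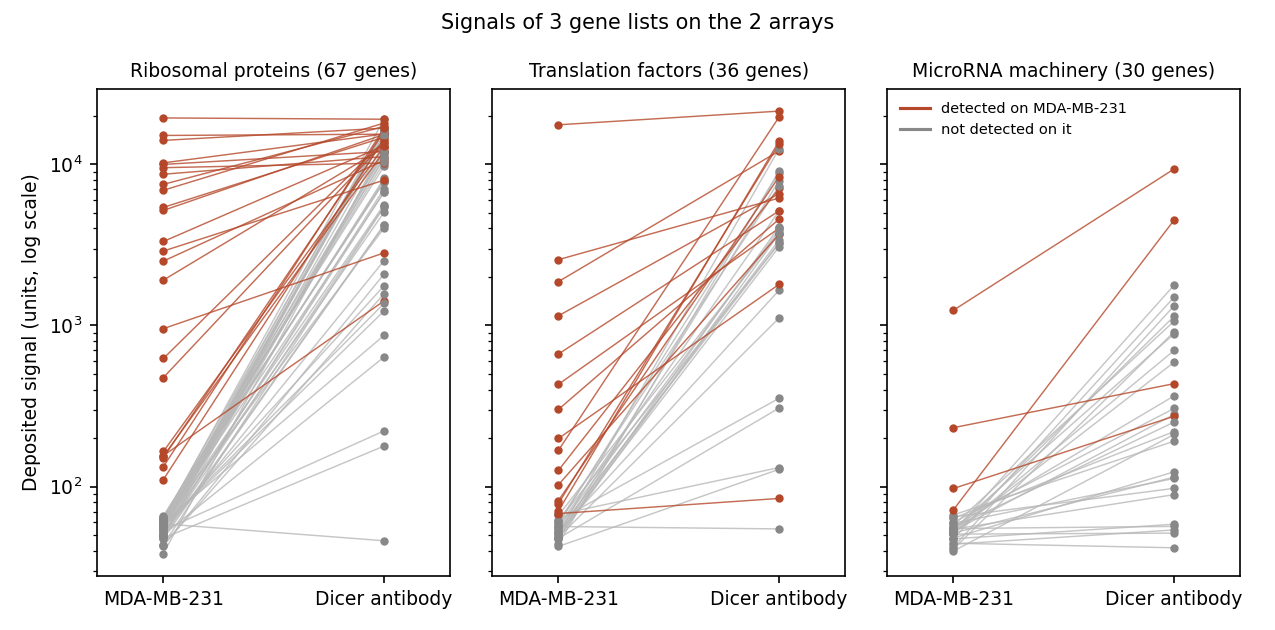
Deposited signals (vertical axis, log scale) on the MDA-MB-231 array (left) and the Dicer antibody array (right) for ribosomal protein, translation factor and microRNA machinery genes, each line 1 gene, red where detected on the MDA-MB-231 array. Of 67 ribosomal protein genes, 15 stay over 1000 units on the MDA-MB-231 array and 43 lie at its background.

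Messenger RNAs of ribosomal proteins are known for a run of pyrimidines at the transcription start, the terminal oligopyrimidine element, through which their translation is controlled. The start regions of 4 genes bright on both arrays and 4 genes undetected on the MDA-MB-231 array are shown so that pyrimidine runs near the annotated start can be compared. Each window holds 20 bases before and 20 bases from the RefSeq gene start (GRCh38.p14), 5′ to 3′ on the gene's strand, with capitals marking each run of 6 or more C or T bases in a row in the window. The first 4 are bright on both arrays.
RPS12 (chr6:132814549-132814588, plus strand): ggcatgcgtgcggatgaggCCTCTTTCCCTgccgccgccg
RPL12 (chr9:127451387-127451426, minus strand): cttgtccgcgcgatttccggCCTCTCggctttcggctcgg
RPS27 (chr1:153990742-153990781, plus strand): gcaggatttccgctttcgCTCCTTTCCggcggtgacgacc
RPL27A (chr11:8682772-8682811, plus strand): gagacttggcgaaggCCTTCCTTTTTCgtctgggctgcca
The next 4 were not detected on the array labelled MDA-MB-231.
RPL41 (chr12:56116613-56116652, plus strand): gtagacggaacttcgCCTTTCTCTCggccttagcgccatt
RPS25 (chr11:119018324-119018363, minus strand): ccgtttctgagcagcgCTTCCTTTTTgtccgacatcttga
RPS16 (chr19:39435930-39435969, minus strand): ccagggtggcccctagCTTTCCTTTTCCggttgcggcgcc
RPL19 (chr17:39200263-39200302, plus strand): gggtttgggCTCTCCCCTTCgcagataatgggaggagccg
All 8 windows held such a run on the gene's strand. In RPL19 it ends before the RefSeq start, so it lies upstream of the annotated transcript; in RPL12 it begins at the start, and in the other 6 it spans it. It was found in 18 of 20 listed start regions of ribosomal protein genes detected on the array labelled MDA-MB-231 and in 35 of 37 (94.6%) of those not detected. Among all 35116 start regions of the same length the share was 38.8%, and among the 1145 of genes detected on both arrays 38.2%. The presence of these letters is a description and does not part the bright genes from the undetected ones.

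Translation factors were likewise mixed. Of 36 measured, 15 (41.7%) were detected on the array labelled MDA-MB-231 and 35 (97.2%) on the Dicer antibody array. The shares over all genes were 7.91% and 55.3%. Under all 6 scalings 14 were at least 2-fold lower and none higher, beside 3.77% and 0.24% of all genes compared. EIF4A1, the helicase that opens messenger RNA leaders, gave 70.6 units on the MDA-MB-231 array against 13894.2 units on the Dicer antibody array and was at least 8.74-fold lower. BTF3, which guards nascent chains, was at least 5.83-fold lower (78.4 units on MDA-MB-231 and 13356.6 units on Dicer antibody). EIF1, a factor of start codon choice, was not detected on the array labelled MDA-MB-231 (50.7 units on MDA-MB-231 and 12483.6 units on Dicer antibody). EIF3I, a subunit of the initiation factor that binds the small ribosomal subunit, kept 2560.3 units on the MDA-MB-231 array against 6175.3 units on the Dicer antibody array.

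Different probes of the same gene disagreed on the MDA-MB-231 array. The 4 probes of EEF1A1 gave 17585.7, 209.4, 90.2 and 60 units on the MDA-MB-231 array, against 21381.9, 19384.8, 21230.5 and 587.3 units on the Dicer antibody array. The 2 probes of TPT1, a translationally controlled tumour protein, gave 5469.9 and 167.9 units on the MDA-MB-231 array, against 6341.4 and 19656.8 units on the Dicer antibody array. Those of UBB gave 10502.2 and 64.6 units on the MDA-MB-231 array, against 14080.1 and 7997.5 units on the Dicer antibody array. These pairs show that a bright probe and a probe at background can belong to the same gene. For RPS27 the 3 probes gave 14072.2, 9004.6 and 52.1 units on the MDA-MB-231 array, against 16771.1, 13770.3 and 3434.8 units on the Dicer antibody array. The 2 probes of RPL12 gave 15102.8 and 59.7 units on the MDA-MB-231 array, against 15372.4 and 11093.7 units on the Dicer antibody array. In each of these genes at least 1 probe was far dimmer on the MDA-MB-231 array than on the other while another was of like brightness on both, so the size of the difference depended on the probe.

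Not every gene split in this way. Both probes of RPL11 were bright, with 9979.5 and 8844 units on the MDA-MB-231 array, against 12004.8 and 11615.6 units on the Dicer antibody array. Both probes of FTL gave 15661.7 and 13762.6 units on the MDA-MB-231 array, against 19375.2 and 19607.8 units on the Dicer antibody array. All probes were dim in 2 genes often used as references. ACTB, a cytoplasmic actin, gave 149.5, 54.9 and 56.5 units on the MDA-MB-231 array, against 12532.8, 13293.8 and 16191.3 units on the Dicer antibody array. GAPDH, a glycolytic enzyme, gave 151.1, 52.8 and 103.6 units on the MDA-MB-231 array, against 14915.8, 7130.7 and 16601.4 units on the Dicer antibody array.

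**Figure D4:**
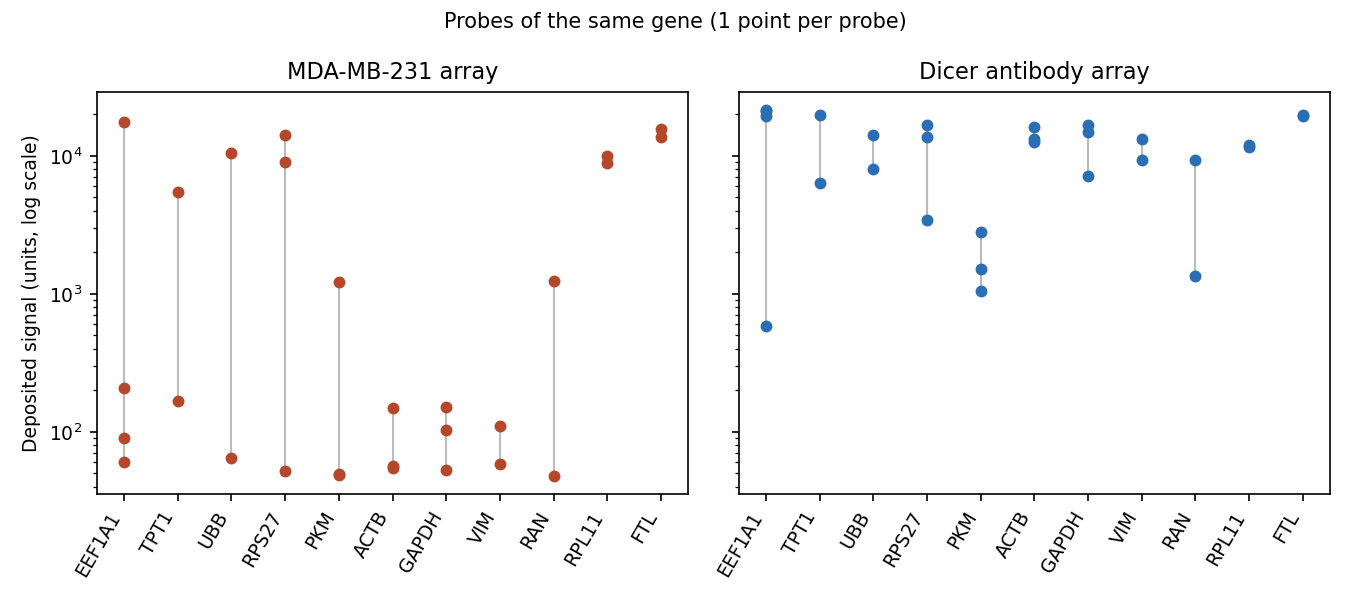
Deposited signal (vertical axis, log scale) of every probe of 11 genes on the MDA-MB-231 array (left panel) and the Dicer antibody array (right panel), with a grey line joining the probes of a gene. On the MDA-MB-231 array the 4 EEF1A1 probes run from 60 to 17585.7 units, and on the Dicer antibody array from 587.3 to 21381.9 units.

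Over all genes with several probes, detection of more than 1 was much rarer on the MDA-MB-231 array. Of 888 genes that had more than 1 probe and at least 1 detected on the MDA-MB-231 array, 102 (11.5%) had another probe detected there. On the Dicer antibody array it was 3074 of 4501 genes (68.3%), on the exosome array 11.9% and on the untreated array 67.6%. Among genes detected on both arrays, another probe was detected on the array labelled MDA-MB-231 in 101 of 759 (13.3%) and on the Dicer antibody array in 78.4%. Of 95 genes called detected only on the MDA-MB-231 array that had another probe, 25 (26.3%) had one detected on the Dicer antibody array and 1 had one detected on the array labelled MDA-MB-231. The call of such a gene thus holds for its representing probe. In 97 genes a further probe was detected on both arrays. After background correction, with each array centred on the probes detected on both, 64 of them differed at least 2-fold by the first probe. The further probe had the same sign in 43 of the 64 (67.2%).

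Few transcripts were higher on the MDA-MB-231 array under every scaling. Of the 27 at least 2-fold higher, 24 were among the 1411 genes detected on both arrays. SIGLEC12, a sialic acid-binding lectin, gave 999.7 units on the MDA-MB-231 array and 154.3 units on the Dicer antibody array and was at least 6.48-fold higher. TUBB2B, a beta-tubulin isotype, gave 1195.8 units on MDA-MB-231 and 210 units on Dicer antibody and was at least 5.69-fold higher. DDAH2, of the dimethylarginine dimethylaminohydrolase family, gave 439.3 units on MDA-MB-231 and 97.9 units on Dicer antibody and was at least 4.49-fold higher. TCEA3, a transcription elongation factor of the TFIIS family, gave 625.5 units on MDA-MB-231 and 141.8 units on Dicer antibody and was at least 4.41-fold higher.

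Further probes of SIGLEC12, STX16, BCL11A, PGK2 and HDGFL1 did not follow. The remaining SIGLEC12 probes gave 58.8 and 64.5 units on the MDA-MB-231 array, against 53.3 and 65.6 units on the Dicer antibody array, and were detected on neither. STX16, a SNARE protein of the trans-Golgi network, was at least 3.56-fold higher by 1 probe (374 units on MDA-MB-231 and 105 units on Dicer antibody), while its other probe gave 52.7 units on the MDA-MB-231 array and 2192.7 units on the Dicer antibody array. BCL11A, a zinc-finger repressor known from fetal globin silencing, was at least 3-fold higher by 1 probe (223.4 units on MDA-MB-231 and 74.4 units on Dicer antibody) and detected on neither array by its other 2. The higher call of these genes rests on 1 probe each.

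Next in size came SNAR-A1, a small non-coding RNA of a multicopy family, with 459.5 units on MDA-MB-231 and 132.1 units on Dicer antibody. PGK2, a phosphoglycerate kinase of the testis, gave 409.9 units on MDA-MB-231 and 123.8 units on Dicer antibody. The histone gene H2AC4 gave 245.9 units on MDA-MB-231 and 82.2 units on Dicer antibody, and HDGFL1 gave 273 units on MDA-MB-231 and 95.9 units on Dicer antibody. The second HDGFL1 probe ran the other way, with 48.6 units on MDA-MB-231 and 130.5 units on Dicer antibody, and was detected on the Dicer antibody array alone. The second PGK2 probe was detected on neither array (54.6 units on MDA-MB-231 and 52.7 units on Dicer antibody). Those 4 ran from at least 3.48-fold higher for SNAR-A1 to at least 2.85-fold higher for HDGFL1. SNAR-A1, PGK2 and H2AC4 have near-identical relatives, so which copy the probe read is uncertain.

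A further 5 of the 27 genes are given here, chosen after their values were seen. PDGFA, the A chain of platelet-derived growth factor, gave 1311.7 units on MDA-MB-231 and 554.7 units on Dicer antibody and was at least 2.36-fold higher. It had 2 further probes, at 91.8 and 57 units on the MDA-MB-231 array and at 70.2 and 60.8 units on the Dicer antibody array. SGK1, a serum- and glucocorticoid-induced kinase, gave 3697.6 units on MDA-MB-231 and 1614.6 units on Dicer antibody and was at least 2.29-fold higher. EFNB2, a membrane-bound ephrin ligand, gave 971 units on MDA-MB-231 and 414.3 units on Dicer antibody, at least 2.34-fold higher. The forkhead factor FOXO4 gave 452.2 units on MDA-MB-231 and 191.2 units on Dicer antibody, at least 2.37-fold higher. PSENEN, a subunit of gamma-secretase, gave 882.3 units on MDA-MB-231 and 363.5 units on Dicer antibody and was at least 2.43-fold higher. Of the 27 genes, 26 were also detected on the exosome array, 25 were brighter there than on the Dicer antibody array and 15 were detected on the untreated array. Among all 1411 genes detected on both compared arrays, 81% were detected on the exosome array and 92.3% on the untreated array. Of the 27, 6 were brighter on the untreated array than on the array labelled MDA-MB-231, so their direction turned with the MCF10A array used. They were SGK1 (11027.6 units untreated), CRYAB (8800.8), EFNB2 (1839.5), FILIP1L (1826), DDAH2 (986.3) and FOXO4 (535.7).

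The genes detected only on the MDA-MB-231 array were faint. HGH1 had the largest bound, with 203.5 units on MDA-MB-231 and 68 units on Dicer antibody, at least 2.82-fold higher. Its other probes were detected on neither array (62.2 and 52.1 units on MDA-MB-231, 63.1 and 47.5 units on Dicer antibody). ICA1, an islet autoantigen, gave 186 units on MDA-MB-231 and 71.8 units on Dicer antibody, at least 2.58-fold higher. The other ICA1 probes were detected on neither array, at 46.2 to 61.7 units on MDA-MB-231 and 46.8 to 59.2 units on Dicer antibody. The higher call of HGH1 and of ICA1 thus rests on 1 probe each. POU5F2, a POU-domain factor of the male germ line, gave 170.4 units on MDA-MB-231 and 63.7 units on Dicer antibody, at least 2.36-fold higher. HGH1, ICA1 and POU5F2 were the 3 of the 175 that reached 2-fold under all 6 scalings. The next 7 were CHKA (choline kinase alpha), the near-identical chorionic gonadotropin genes CGB8 and CGB5, NRTN (the GDNF-family ligand neurturin), OSR1 (a zinc-finger factor of kidney development), RAB9BP1 and SNORD62B. Their signals ran from 106.6 units for SNORD62B to 124.8 units for CHKA on the MDA-MB-231 array, against 50.1 units for RAB9BP1 to 71.8 units for CHKA on the Dicer antibody array. For CHKA, 2 of its other probes were detected on the Dicer antibody array alone, with 47.1 and 59.8 units on the MDA-MB-231 array, against 275.4 and 156.8 units on the Dicer antibody array. A second CGB5 probe was detected on neither array (49.5 units on MDA-MB-231 and 68.5 units on Dicer antibody). Of the 175, 36.6% were detected on the exosome array and 20.6% on the untreated array.

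Among genes detected on both arrays, those lowest on the MDA-MB-231 array gave some of the brightest signals on the Dicer antibody array. TMSB4X, the actin-sequestering thymosin beta-4, gave 86 units on the MDA-MB-231 array and 18842 units on the Dicer antibody array and was at least 9.88-fold lower. ATP5F1B, the catalytic beta subunit of ATP synthase, gave 72.8 units on MDA-MB-231 and 15268.5 units on Dicer antibody and was at least 8.86-fold lower. NME1, a nucleoside diphosphate kinase, gave 69.6 units on MDA-MB-231 and 12333.7 units on Dicer antibody and was at least 7.81-fold lower. SNHG1, a host RNA of small nucleolar RNAs, gave 69.5 units on MDA-MB-231 and 8120.8 units on Dicer antibody and was at least 5.15-fold lower. TPT1 was at least 6.19-fold lower by its first probe alone, since its other probe was bright on both arrays. SLC7A5P2, a pseudogene of an amino acid transporter (76.9 units on MDA-MB-231 and 15180.8 units on Dicer antibody, at least 7.4-fold lower), may read its parent gene. ZNF674, a zinc-finger gene, was at least 4.7-fold lower (95.7 units on MDA-MB-231 and 13778.7 units on Dicer antibody).

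Of the 10 genes with the largest bounds among those detected only on the Dicer antibody array, 5 encode ribosomal proteins and 2 encode the secreted cytokines CXCL8 and IL6. CXCL8, the neutrophil chemokine interleukin-8, gave 50.5 units on the MDA-MB-231 array and 20768.2 units on the Dicer antibody array and was at least 24.3-fold lower. The other CXCL8 probe gave 47.7 units on MDA-MB-231 and 15606 units on Dicer antibody. IL6, an acute-phase cytokine, gave 53.6 units on MDA-MB-231 and 18620.3 units on Dicer antibody and was at least 19.2-fold lower. IRX2, a homeobox factor, gave 57.5 units on MDA-MB-231 and 18811.3 units on Dicer antibody and was at least 19.8-fold lower. On the untreated array CXCL8 gave 3339.7 units, IL6 988.3 units and IRX2 689.7 units, all under their Dicer antibody values. The histone gene H4C3 (50.5 units on MDA-MB-231 and 16024.3 units on Dicer antibody, 938.8 units untreated) and the glycolytic enzyme ENO1 (62.4 units on MDA-MB-231 and 16747.1 units on Dicer antibody, 13566.5 units untreated) completed the 10, with RPL41, RPS25, RPS16, RPL19 and RPS19 described above.

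The wider NF-kB list had 2 of 27 genes (7.41%) detected on the array labelled MDA-MB-231, near the 7.91% of all genes, and 23 (85.2%) on the Dicer antibody array, where all genes had 55.3%. NFKBIA, the inhibitor that holds NF-kB in the cytoplasm, gave 4450.7 units on MDA-MB-231 and 7272.7 units on Dicer antibody, and SOD2, the mitochondrial superoxide dismutase, 836.9 units on MDA-MB-231 and 8974.2 units on Dicer antibody. CXCL2, a neutrophil chemokine, gave 51.8 units on MDA-MB-231 and 5639.6 units on Dicer antibody and IL1B, interleukin-1 beta, 48.3 units on MDA-MB-231 and 4549.9 units on Dicer antibody. Of this list 5 were at least 2-fold lower under all 6 scalings and none higher, beside 3.77% and 0.24% of all genes compared. Among immediate early genes, 6 of 21 were detected on the array labelled MDA-MB-231 and 18 on the Dicer antibody array. EGR1 (1113.8 units on MDA-MB-231 and 1969.1 units on Dicer antibody) and FOSB (588.1 units on MDA-MB-231 and 486.1 units on Dicer antibody), both growth-factor-induced transcription factors, were the brightest on the MDA-MB-231 array. MYC, a regulator of growth, was at least 3.04-fold lower (92.1 units on MDA-MB-231 and 9044.5 units on Dicer antibody), and IER3 was not detected on the array labelled MDA-MB-231 (53.6 units on MDA-MB-231 and 14302.6 units on Dicer antibody).

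Of 30 measured genes of the microRNA pathway, in which the antibody's target acts, 4 (13.3%) were detected on the array labelled MDA-MB-231 and 25 (83.3%) on the Dicer antibody array, beside 7.91% and 55.3% of all genes. DICER1 itself gave 53 units on the MDA-MB-231 array and 280.5 units on the Dicer antibody array by 1 probe. Its other 3 probes gave 49.7 to 53.8 units on the MDA-MB-231 array and 45 to 69.9 units on the Dicer antibody array and were detected on neither. An antibody carried in a vesicle targets protein, so the transcript level is no check of it.

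In the nuclear step, the nuclease DROSHA gave 51.1 units on the MDA-MB-231 array against 699.8 units on the Dicer antibody array and its partner DGCR8 63.6 units on MDA-MB-231 and 219.5 units on Dicer antibody. DDX5, a helicase of the same complex, was detected on both arrays and at least 2.37-fold lower on the array labelled MDA-MB-231 (71.8 units on MDA-MB-231 and 4512.1 units on Dicer antibody). For export, XPO5 gave 57.4 units on MDA-MB-231 and 1063.4 units on Dicer antibody, while RAN, the GTPase that powers exportins, gave 1242.5 units on MDA-MB-231 and 9357.1 units on Dicer antibody. A second RAN probe gave 48.2 units on MDA-MB-231 and 1341.7 units on Dicer antibody. HNRNPA1, an RNA-binding protein that also binds some primary microRNAs, gave 232 units on MDA-MB-231 and 435.3 units on Dicer antibody. A second HNRNPA1 probe gave 53.8 units on MDA-MB-231 and 340.3 units on Dicer antibody.

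Among Dicer's partners, TARBP2 gave 66.7 units on MDA-MB-231 and 191.3 units on Dicer antibody, and PRKRA gave 51.4 units on MDA-MB-231 and 591.3 units on Dicer antibody. Among the Argonautes, AGO1 was detected on both arrays, with 97.3 units on MDA-MB-231 and 273.1 units on Dicer antibody. AGO2, the one with slicer activity, was detected on the Dicer antibody array alone, with 54.5 units on MDA-MB-231 and 886.6 units on Dicer antibody. AGO3 likewise gave 59.1 units on MDA-MB-231 and 112.3 units on Dicer antibody, and AGO4 was detected on neither (43.9 units on MDA-MB-231 and 53.8 units on Dicer antibody). Of the Argonaute-binding scaffolds, TNRC6A (64.9 units on MDA-MB-231 and 97.5 units on Dicer antibody) and TNRC6B (55.7 units on MDA-MB-231 and 251.2 units on Dicer antibody) were detected on the Dicer antibody array alone, and TNRC6C (47.4 units on MDA-MB-231 and 58.4 units on Dicer antibody) on neither.

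The helicases DHX9, MOV10, DDX17 and DDX20 were detected on the Dicer antibody array alone. They gave between 51.5 units (DDX17) and 60 units (DHX9) on the MDA-MB-231 array, against between 89.1 units (DDX20) and 365.4 units (MOV10) on the Dicer antibody array. So were the RNA-binding cofactors SND1, KHSRP and GEMIN4, the editing enzyme ADAR and the ribonuclease ZC3H12A. They gave between 40.9 units (ZC3H12A) and 52 units (SND1) on the MDA-MB-231 array, against between 913.5 units (ZC3H12A) and 1779.7 units (SND1) on the Dicer antibody array. The uridyltransferases TUT4 and TUT7 gave 39.8 and 48 units on the MDA-MB-231 array, against 210.8 and 123.5 units on the Dicer antibody array. LIN28A and LIN28B, which block let-7 maturation, and PIWIL4 were detected on neither array, at between 44.5 and 54.9 units on the MDA-MB-231 array and between 41.7 and 56.6 units on the Dicer antibody array. Of the pathway, DDX5 was the 1 gene at least 2-fold lower under all 6 scalings and none was higher, against 3.77% and 0.24% of all genes compared. The pathway genes not detected on the array labelled MDA-MB-231 gave at most 1779.7 units on the Dicer antibody array. No gene called lower gave under 3447.9 units there, so these were too dim to be called.

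Small nuclear RNA genes were detected equally often on the arrays. Of 16 spliceosomal and related small nuclear RNA genes, 11 were detected on each array. RNU6-1, the U6 RNA, gave 1027.2 units on the MDA-MB-231 array and 1556.2 units on the Dicer antibody array, and RNU1-3, a U1 gene, gave 417.8 units on MDA-MB-231 and 281 units on Dicer antibody. RN7SK, which holds the elongation factor P-TEFb inactive, gave 333.3 units on MDA-MB-231 and 315.9 units on Dicer antibody, whereas RN7SL1, the RNA of the signal recognition particle, gave 438.9 units on MDA-MB-231 and 11720.4 units on Dicer antibody. Small nucleolar RNA genes were detected in 18 of 279 (6.45%) on the MDA-MB-231 array, against 117 of 279 (41.9%) on the other array. The shares over all genes were 7.91% and 55.3%. Copies of U1, U4 and U6 are near-identical, and their signals may be shared.

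Of 560 genes annotated as microRNAs, whose probes read precursor transcripts, 15 (2.68%) were detected on the array labelled MDA-MB-231 and 30 (5.36%) on the Dicer antibody array. The shares over all genes were 7.91% and 55.3%. With long non-coding host genes of microRNAs included, 577 genes gave no more than 93.1 units on MDA-MB-231 and 418.6 units on Dicer antibody. The olfactory and taste receptor genes, which neither cell type is known to use, had 7 of 396 detected on the array labelled MDA-MB-231 (1.77%) and 12 of 396 on the Dicer antibody array (3.03%), at up to 93 units on MDA-MB-231 and 198.2 units on Dicer antibody. A detected signal under 100 units is therefore read here with that background beside it.

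The genes of vesicle formation and cargo had 2 of 26 (7.69%) detected on the array labelled MDA-MB-231, near the 7.91% of all genes, and 23 (88.5%) on the Dicer antibody array, where all genes had 55.3%. FLOT2, a membrane raft protein, gave 356.8 units on MDA-MB-231 and 2039.6 units on Dicer antibody and CD82, a tetraspanin, 90.7 units on MDA-MB-231 and 165.6 units on Dicer antibody. A second CD82 probe gave 46.4 units on MDA-MB-231 and 234.9 units on Dicer antibody. CD81, a tetraspanin used as an exosome marker, was not detected on the array labelled MDA-MB-231 and was at least 6.97-fold lower (66 units on MDA-MB-231 and 9593.8 units on Dicer antibody). TSG101, a subunit of the ESCRT-I sorting complex, gave 65.3 units on MDA-MB-231 and 1772.6 units on Dicer antibody.

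Metabolic and proteolytic genes were partly detected on the MDA-MB-231 array. Of all genes, 7.91% were detected there and 55.3% on the Dicer antibody array. Of all genes compared, 3.77% were at least 2-fold lower under all 6 scalings. Of the respiratory chain and ATP synthase, 7 of 44 were detected on the array labelled MDA-MB-231 and 43 on the Dicer antibody array, with 18 at least 2-fold lower. ATP5MG, a membrane subunit of ATP synthase, gave 3652.4 units on MDA-MB-231 and 6145.1 units on Dicer antibody. A second ATP5MG probe gave 47 units on MDA-MB-231 and 371.1 units on Dicer antibody. Of 18 glycolysis genes, 5 were detected on the array labelled MDA-MB-231 and all 18 on the Dicer antibody array, with 7 at least 2-fold lower. PKM, pyruvate kinase, gave 1220.3 units on MDA-MB-231 and 1053.4 units on Dicer antibody by 1 probe. Its other 2 probes gave 49.6 and 48.3 units on the MDA-MB-231 array, against 1522.2 and 2811.6 units on the Dicer antibody array. LDHA, lactate dehydrogenase, was not detected on the array labelled MDA-MB-231 (63.3 units on MDA-MB-231 and 11949.3 units on Dicer antibody). Of 27 proteasome genes, 8 were detected on the array labelled MDA-MB-231 and all 27 on the Dicer antibody array. PSMC6, an ATPase of the regulatory particle, gave 1322.2 units on MDA-MB-231 and 2326.5 units on Dicer antibody.

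Small nuclear RNAs aside, cytoskeletal genes had the highest detected share of the gene lists, 13 of 31 (41.9%) on the MDA-MB-231 array, where the Dicer antibody array had all 31. The shares over all genes were 7.91% and 55.3%. TUBA1A, an alpha-tubulin, gave 8075 units on MDA-MB-231 and 14538.7 units on Dicer antibody, and TUBB, a beta-tubulin, 5578.6 units on MDA-MB-231 and 4419.7 units on Dicer antibody. A second TUBB probe gave 40.5 units on MDA-MB-231 and 3182.5 units on Dicer antibody. Of 29 chaperones, 8 were detected on the array labelled MDA-MB-231 and 28 on the Dicer antibody array. HSP90B1, the endoplasmic reticulum HSP90, gave 3049.5 units on MDA-MB-231 and 6782.7 units on Dicer antibody, and the small heat shock protein CRYAB was at least 2.46-fold higher on the MDA-MB-231 array (186.5 units on MDA-MB-231 and 75.7 units on Dicer antibody). CRYAB gave 8800.8 units on the untreated array, so its order against MCF10A depended on the array chosen.

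Of all genes, 7.91% were detected on the array labelled MDA-MB-231 and 55.3% on the Dicer antibody array, and the lists of regulated genes lay on both sides of the 7.91%. TGF-beta and matrix genes had 0 of 29 detected on the array labelled MDA-MB-231 and 23 on the Dicer antibody array, led by TGFBI, a matrix protein induced by TGF-beta (58.7 units on MDA-MB-231 and 10675.3 units on Dicer antibody, at least 7.68-fold lower). Of 40 cell cycle genes, 4 (10%) were detected on the array labelled MDA-MB-231 and 39 on the Dicer antibody array. EZH2, the histone methyltransferase of Polycomb, gave 269.4 units on MDA-MB-231 and 764.5 units on Dicer antibody and CDC20, the activator of the anaphase-promoting complex, 71 units on MDA-MB-231 and 5290 units on Dicer antibody (at least 2.96-fold lower). Of 22 genes of the p53 list, 2 (9.09%) were detected on the array labelled MDA-MB-231 and all 22 on the Dicer antibody array. BAX, a pro-apoptotic protein, gave 563.8 units on MDA-MB-231 and 471.7 units on Dicer antibody, and GDF15, a stress-induced cytokine, 49.1 units on MDA-MB-231 and 10676.4 units on Dicer antibody (at least 7.68-fold lower). Of 28 interferon response genes, 4 (14.3%) were detected on the array labelled MDA-MB-231 and 26 on the Dicer antibody array. IFITM2, a membrane protein that restricts virus entry, gave 95.9 units on MDA-MB-231 and 6543.1 units on Dicer antibody.

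**Figure D5:**
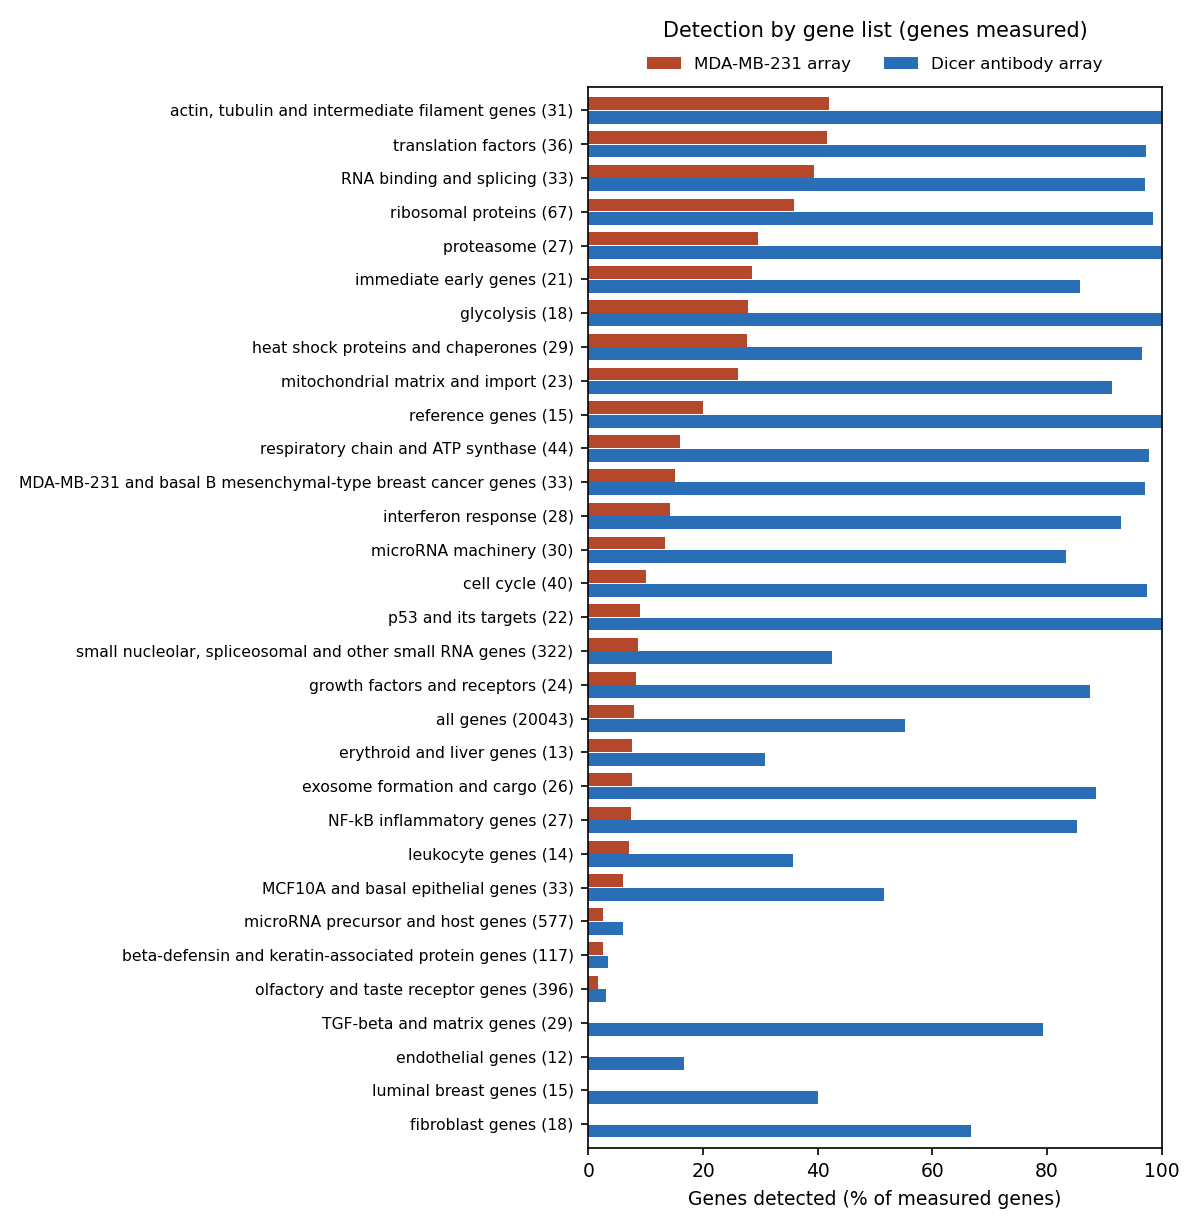
Share of measured genes detected (horizontal axis, percent) on the MDA-MB-231 array (upper bar, red) and the Dicer antibody array (lower bar, blue) for each gene list and for all genes, with the number measured in brackets. All genes stand at 7.91% for MDA-MB-231 and 55.3% for Dicer antibody, and the cytoskeletal list is highest on the MDA-MB-231 array at 41.9%.

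The order of signals was closer to that of the exosome array than to that of the Dicer antibody array. Over the 1143 genes detected on all 3 arrays, Spearman's rho across genes was 0.861 between the MDA-MB-231 and exosome arrays and 0.563 between the MDA-MB-231 and Dicer antibody arrays. Genes are not independent replicates, and the arrays with few detected probes share that feature, so these are descriptions. Of the 2573 probes detected on the MDA-MB-231 array, 85.5% were detected on the Dicer antibody array and 73.3% on the exosome array. In return, 11.4% of the Dicer antibody probes and 74.6% of the exosome probes were detected on the array labelled MDA-MB-231.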

How the data were processed

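Each of 4 groups had 1 array, so the number of arrays limits the precision and nothing was tested. The authors deposited a non-normalized table that gives each probe's intensity, unlogged, on every array, and a detection p-value beside it, per the file headers. That p-value moves in steps that imply 770 negative control values. The authors used limma (per the submitters' processing notes), version not given in the sources used here. Their value table of normalized intensity was deposited without its method and served as an alternative for the 2 arrays (medians 55.1 and 55.3).

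Here, signals were background-corrected from the detection p-values, quantile-normalized over 4 arrays and logged with neqc (limma 3.58.1, R 4.3.3, offset 16). The 5 other scalings were neqc over the 2 arrays, quantile normalization without background correction, background correction unscaled, background correction centred on probes detected on both arrays, and the deposited signals. A gene took its single-symbol probe with the highest mean over 4 arrays. Symbols were found for 30110 of 47322 probes, several for 8 and none for 17204, and 30071 were updated through the gene identifier. The procedure was tested on simulated arrays with changed probes. Those arrays were all drawn from the Dicer antibody signals, so the test did not cover arrays that differ in detection as these 2 do.

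Genes were named as the 10 per direction with the largest smallest difference over the 6 scalings among genes detected on both arrays, the 10 with the largest bound among genes detected on either array alone, the 10 highest signals of each array, every microRNA pathway gene, and from each other list some genes detected on both arrays and the brightest of the rest. PDGFA, SGK1, EFNB2, FOXO4, PSENEN and FILIP1L were added after their values were seen, from the 27 genes higher under all scalings. Members and lists were chosen with earlier results of these data known. Start regions and their coordinates are from RefSeq (GRCh38.p14).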

Additional observations from a re-analysis of the deposited data

How the results depend on the processing

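Single arrays set the main limit, and any difference between arrays belongs to these 2 hybridisations. No paired analysis was possible because each group had 1 array. With a detection p below 0.05, 2383 genes were detected on both arrays and 271 only on the MDA-MB-231 array, and 2288 genes were at least 2-fold higher and 1313 lower. With a detection p below 0.001, 319 were lower. Background correction with no scaling gave 42 higher and 9167 lower genes and a median log2 difference of -1.75. Centred on probes detected on both arrays it gave 799, 4550 and 0.73, and the deposited signals 27, 8045 and -1.39. The mean over a gene's probes gave 5194 lower genes and a median of 1.79. Part of these shifts follows from construction, since a quantile step equalises the arrays and a looser threshold tests more genes. The authors' deposited value table gave 1400 higher and 566 lower genes and a median of 2.98. Of 170 named or listed genes given a fold, 0 reversed under the 5 other scalings or the value table, as their choice fixed for the scalings.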

Other observations

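Genes of RNA binding and splicing were among the better detected on the MDA-MB-231 array, with 13 of 33 detected there and 32 of 33 on the Dicer antibody array. The shares over all genes were 7.91% and 55.3%. SNRPB, a core protein of spliceosomal particles, gave 3535.1 units on the MDA-MB-231 array against 6700.5 units on the Dicer antibody array. YBX1, a cold-shock domain protein that binds RNA, gave 3232.6 units on MDA-MB-231 and 7182.7 units on Dicer antibody, and SRSF5, a serine- and arginine-rich splicing factor, 1865.8 units on MDA-MB-231 and 1454.5 units on Dicer antibody. SNRPD2, another core protein of the same particles, was not detected on the array labelled MDA-MB-231 and was at least 8.63-fold lower (66 units on MDA-MB-231 and 11885.7 units on Dicer antibody). Of the list, 6 were at least 2-fold lower under all 6 scalings and none higher, beside 3.77% and 0.24% of all genes compared.

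Genes of the mitochondrial matrix and import had 6 of 23 detected on the array labelled MDA-MB-231 and 21 of 23 on the Dicer antibody array. The shares over all genes were 7.91% and 55.3%. SLC25A5, an adenine nucleotide carrier, gave 2309.7 units on MDA-MB-231 and 10945.1 units on Dicer antibody and SLC25A3, the phosphate carrier, 1834.8 units on MDA-MB-231 and 6348.8 units on Dicer antibody. TOMM7, a subunit of the outer membrane import pore, was not detected on the array labelled MDA-MB-231 (50 units on MDA-MB-231 and 7157.1 units on Dicer antibody, at least 5.18-fold lower).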
